A study of Mus musculus with 2 samples.

Results

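Monocyte-like cells were a small minority of the sorted marrow cells. They were chosen by their own mRNA counts, as cells with at least 1 UMI (one counted mRNA molecule) for at least 4 of the 7 genes Fn1, Lgals3, Ifitm6, Ms4a4c, Cybb, Mcemp1 and Clec4b1, and with fewer than 10 UMIs of the neutrophil granule genes Camp, Ngp and Ltf together. This gate held 435 of the 20241 kept cells, 269 of 10769 in the KO-labelled library and 166 of 9472 in the WT library. The cells came from mouse bone marrow sorted as LSK CD150+, meaning cells that lack lineage antigens and bear Sca-1, Kit and CD150 (the SLAM family member 1 receptor), and were profiled with 10x Genomics 3′ single-cell RNA-seq. The mice belonged to a Runx1F/F Mx1-Cre model, in which loxP sites flank part of Runx1 and an interferon-inducible promoter drives the recombinase in many cell types. One library was labelled RUNX1 KO and the other RUNX1 WT; whether the WT mice carried the floxed allele or Mx1-Cre, whether an inducer was given, and how many animals were pooled are not given in the sources used here. With 1 library per genotype no difference has a replicate check, none was tested, and the exact 95% intervals cover counting error only.

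Monocytes are phagocytes that leave the bone marrow for the blood and tissues. They arise from Kit-positive progenitors through granulocyte-monocyte progenitors, which make the primary granule enzymes myeloperoxidase, neutrophil elastase, proteinase 3 and cathepsin G. Classical monocytes of the mouse carry Ly6C and the chemokine receptor CCR2, and the transcription factors PU.1 (Spi1), IRF8 and KLF4 take part in their formation. Mature monocytes are not expected to carry the Kit and Sca-1 proteins by which the cells were sorted.

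The libraries held 11398 barcodes with 120578398 UMIs (KO-labelled) and 9969 barcodes with 113732196 UMIs (WT). Gate cells had a median of 9947 UMIs and 2903 genes in the KO-labelled library and 10723 UMIs and 3005 genes in the WT library. A total of 39 barcodes occurred in both libraries, 4 of them in a gate and 0 in both gates. The libraries differed in the sex of their cells. By Xist and 4 Y-linked genes, 197 of the KO-labelled gate cells (73.2%) read as female and 23 (8.55%) as male, against 0 female and 106 male cells (63.9%) in the WT gate, where 0 of 166 cells allows a female share of up to 1.81%. Every comparison of the libraries is therefore also one of mostly female with mostly male cells, and genotype, sex and library preparation cannot be told apart.

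The gate made up 2.50% of kept cells in the KO-labelled library (exact interval 2.21 to 2.81%) and 1.75% in the WT library (1.498 to 2.04%), a ratio of 1.43 (1.17 to 1.74). Under a stricter cell filter of at least 1000 genes and at most 5% mitochondrial UMIs the shares were 2.85% in KO-labelled and 2.59% in WT cells, a ratio of 1.10. The median mitochondrial share of the other kept cells was 4.36% in the KO-labelled and 4.95% in the WT library, and the part of that share in the result was not tested. Among male cells alone the ratio was 1.49.

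The values that chose the cells are given as a description. Lgals3, which encodes galectin-3, stood at 1695 CPM (UMIs per 1000000 UMIs of the summed cells) in KO-labelled and 1727 CPM in WT gate cells. Fn1, the gene of fibronectin, stood at 619 CPM in the KO-labelled gate and 344 CPM in the WT gate. Cybb, the catalytic subunit of the phagocyte NADPH oxidase, stood at 267 CPM in both. The other 4 genes lay between 52.7 and 243 CPM in the KO-labelled gate and between 35.0 and 185 CPM in the WT gate. The number of cells with exactly 3 of the 7 genes, just outside the gate, was 77 in the KO-labelled and 72 in the WT library, and with exactly 4, just inside, 62 and 55 in the same libraries. Lyz2, a lysozyme gene outside the rule, stood at 1553 CPM with 3 genes and 3820 CPM with 4 in the KO-labelled library, and at 886 and 2434 CPM in the WT library. The granule limit met a clear gap: gate cells held 0 or 1 UMI of the 3 granule genes, and the 10 cells it left out held at least 436.

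The label was checked against markers outside the rule, in gate cells and in the other kept cells of the same library. Since the cells were chosen by genes that vary with these, the values describe the cells and test nothing. Of 3114 genes that reached 50 CPM, 319 (10.2%) were higher by 2-fold or more in gate cells of both libraries and 171 (5.49%) lower. Of 25 monocyte identity genes at that level, 24 were at least 2-fold higher in both libraries; their median log2 ratio of gate over other cells was 4.59 in the KO-labelled and 4.62 in the WT library, against medians of -0.05 and -0.08 over all these genes. Lyz2 (chromosome 10, 117277331 to 117282321) stood at 10684 CPM in gate cells and 234 CPM in other cells of the KO-labelled library, and at 8457 CPM in gate cells and 216 CPM in other cells of the WT library. Ccr2, the receptor for monocyte egress from marrow, stood at 522 CPM in gate cells against 8.17 CPM in other KO-labelled cells, and at 426 against 11.1 CPM in the WT library. Klf4 stood at 227 against 3.93 CPM in the KO-labelled library and at 251 against 4.81 CPM in the WT library. Of 11 myeloid transcription factor genes, 8 were at least 2-fold higher, among them Irf8, Spi1 and Cebpb. Irf8 stood at 692 CPM in gate and 47.8 CPM in other KO-labelled cells, and at 626 and 52.1 CPM in gate and other WT cells.

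**Figure D1:**
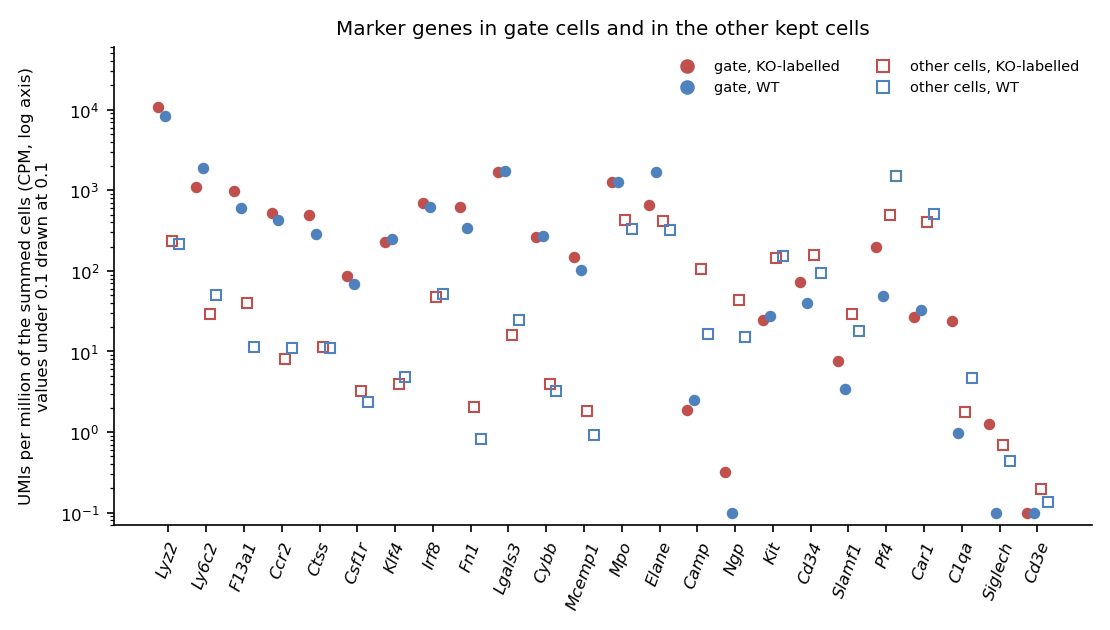
CPM of the summed cells (log axis) for marker genes, in gate cells (filled circles) and other kept cells (open squares) of the KO-labelled (red) and WT (blue) libraries, each point 1 sum. Monocyte genes such as Lyz2 (10684 and 8457 CPM in the 2 gates) lie far above the other cells, while Kit and Car1 in gate cells lie below their level in other cells.

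Markers of some other lineages were low in gate cells, while those of neighbouring myeloid stages were not. The sort antigens were low as mRNA: after each cell was thinned to 3000 UMIs, Kit was seen in 2.63% of KO-labelled gate cells (7 of 266) and 4.97% of WT gate cells (8 of 161), against 33.5% of KO-labelled and 32.0% of WT cells marked as granulocyte-monocyte progenitors outside the gate. Ly6a, the Sca-1 gene, was seen in 3.76% of KO-labelled and 1.24% of WT gate cells. Its shares were 7.37% and 3.67% in progenitor-marked and 1.35% and 0.97% in erythroid-marked cells of the KO-labelled and WT libraries, so a low share was not particular to the gate. Slamf1, the CD150 gene, was seen in 1.88% of KO-labelled and 0 of 161 WT gate cells. In progenitor-marked cells its shares were 3.78% (KO-labelled) and 2.82% (WT). Before thinning, Kit was seen in 15.2% of KO-labelled and 17.5% of WT gate cells. Of 11 stem and progenitor genes at 50 CPM or more, 10 were at least 2-fold lower in gate cells in both libraries. T and NK cell genes summed to 9.46 CPM in KO-labelled and 4.44 CPM in WT gate cells, with 6 of 8 at 0 in each. Erythroid genes summed to 162 CPM in gate cells against 2319 CPM in other KO-labelled cells, and to 188 against 1751 CPM in the WT library.

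The 10 genes of the primary granule stage were not low. They summed to 7394 CPM in gate cells against 3899 CPM in other KO-labelled cells, and to 9337 against 3653 CPM in the WT library, with 5 of them past 2-fold upward and 2 downward in both gates. MHC class II genes summed to 2412 CPM in gate and 474 CPM in other KO-labelled cells, and to 1242 and 580 CPM in gate and other WT cells. Late neutrophil granule genes, a list that also holds Chil3, summed to 3555 CPM in gate and 768 CPM in other KO-labelled cells, and to 603 and 188 CPM in gate and other WT cells. The other cells included granule-rich cells, meaning those with at least 10 UMIs of Camp, Ngp and Ltf together. There were 23 of them in the KO-labelled and 5 in the WT library. Most of the KO-labelled gate sum was Chil3, at 2785 CPM in gate and 39.1 CPM in other KO-labelled cells. In the WT library Chil3 stood at 245 CPM in gate and 3.96 CPM in other cells. The 10 genes of non-classical monocytes, the patrolling kind, summed to 279 CPM in gate and 158 CPM in other KO-labelled cells, and to 342 and 190 CPM in gate and other WT cells. Among them Cx3cr1 was 29.0 times as high in gate as in other cells of the KO-labelled library and 31.5 times in the WT library, while Nr4a1, Ace, Treml4 and Cd300e lay at or below 3.47 CPM in both gates. The 16 macrophage genes summed to 1022 CPM in gate and 2300.4 CPM in other KO-labelled cells, and to 282 and 1254 CPM in gate and other WT cells, and most of each sum was Apoe. Cd5l, Mertk, Timd4 and Marco were at 0 in both gates. Mrc1 stood at 18.6 CPM in KO-labelled and 3.95 CPM in WT gate cells, and Hmox1 at 34.7 and 6.42 CPM in the KO-labelled and WT gates. C1qa stood at 23.7 CPM in the KO-labelled gate and 0.987 CPM in the WT gate, with 100% of its UMIs in 1 cell in each. The label is kept for the monocyte genes, and the gate holds cells with progenitor and antigen presentation genes as well.

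Gene starts of 3 genes that the results turn on are shown because the ETS factor PU.1 gene Spi1 was high in gate cells and Runx1 is the targeted gene. RefSeq promoters (build GRCm38.p6, 250 bases before to 50 after the start) were found for 6 of the 7 rule genes and 12 of the 15 genes highest in gate over other cells. Capitals mark AGGAAGT, an ETS-type core, or TGTGGT, a RUNX-type core, on either strand.
Lyz2, chr10:117282223-117282522, minus strand: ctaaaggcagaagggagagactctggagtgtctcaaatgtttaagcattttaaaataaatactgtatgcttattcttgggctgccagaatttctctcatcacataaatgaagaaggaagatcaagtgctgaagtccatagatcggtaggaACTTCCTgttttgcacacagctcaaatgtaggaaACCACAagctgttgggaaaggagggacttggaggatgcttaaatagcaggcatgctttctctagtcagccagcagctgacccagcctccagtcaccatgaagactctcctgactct
Ly6c2, chr15:75111922-75112221, minus strand: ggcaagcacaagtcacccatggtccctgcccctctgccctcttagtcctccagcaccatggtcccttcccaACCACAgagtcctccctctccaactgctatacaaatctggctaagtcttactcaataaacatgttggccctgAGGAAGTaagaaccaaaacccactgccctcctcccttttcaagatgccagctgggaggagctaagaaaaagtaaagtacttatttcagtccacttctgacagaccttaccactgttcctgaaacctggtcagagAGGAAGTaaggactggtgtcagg
Chil3, chr3:106167515-106167814, minus strand: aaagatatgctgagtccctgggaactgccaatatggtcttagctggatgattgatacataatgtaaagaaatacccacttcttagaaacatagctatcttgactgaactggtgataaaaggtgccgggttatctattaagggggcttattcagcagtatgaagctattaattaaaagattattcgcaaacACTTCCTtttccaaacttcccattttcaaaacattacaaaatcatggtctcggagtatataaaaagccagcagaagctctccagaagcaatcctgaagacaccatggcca
The ETS-type core was in 9.35% of all 32851 promoters in the table and in 7 of the 12 high genes, Lyz2, Ly6c2 and Chil3 among them. The RUNX-type core was in 16.8% of all promoters, in 3 of these 12 and in 5 of the 6 rule genes. Of the 24 genes taken as highest and lowest between the libraries 19 had a promoter in the table, 6 of them with the ETS-type and 4 with the RUNX-type core. The 3 promoters printed all hold an ETS-type core and do not stand for the rest. A gene counted if any of its listed promoters held the core, as F13a1 did with 1 promoter lacking the ETS-type core. The shares over all promoters were per promoter, so the 2 are not on the same basis. These are matches of letters in a window, and binding was not measured.

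Gate cells varied along 2 axes in both libraries. Primary granule genes (5 or more UMIs of Mpo, Elane, Prtn3 and Ctsg after thinning) marked 49.6% of KO-labelled gate cells and 50.3% of WT gate cells. Cells marked as erythroid were taken as a measure of free RNA. In them the share with primary granule genes was 0.123% in the KO-labelled library. Cells marked as granulocyte-monocyte progenitors, by genes that include Mpo, Elane, Prtn3 and Ctsg, were not counted as erythroid. That choice lowers the erythroid share in advance, so it gives no measure of free RNA for these genes. Progenitor-marked cells outside the gate were chosen in part by the same genes. Their share with primary granule genes was 50.05% in the KO-labelled and 44.5% in the WT library. MHC class II genes (3 or more UMIs of H2-Aa, H2-Ab1 and H2-Eb1, which present antigen) marked 13.2% of KO-labelled gate cells (35 of 266, interval 9.34 to 17.8%) and 6.21% of WT gate cells (10 of 161, 3.02 to 11.1%), against 0.613% of KO-labelled and 0.693% of WT erythroid-marked cells. The 2 marks met in 2 KO-labelled cells and in 0 WT cells. Cd209a, a lectin gene of monocytes with dendritic features in the mouse, was seen in 60.6% of the 33 KO-labelled and 50% of the 10 WT cells that carried class II alone, and in 7.69% of the 130 KO-labelled cells with primary granule genes alone. Mki67 or Top2a, genes of dividing cells, was seen in 76.2% of KO-labelled (interval 67.9 to 83.2%) and 85.2% of WT cells (75.6 to 92.1%) with primary granule genes alone. In cells with neither mark the shares were 46.5% in the KO-labelled (36.5 to 56.7%) and 70% in the WT library (57.9 to 80.4%). In cells with class II alone they were 33.3% in the KO-labelled library (11 of 33, 17.96 to 51.8%) and 60% in the WT library (6 of 10, 26.2 to 87.8%), and the last interval spans the shares of the other WT cells.

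**Figure D2:**
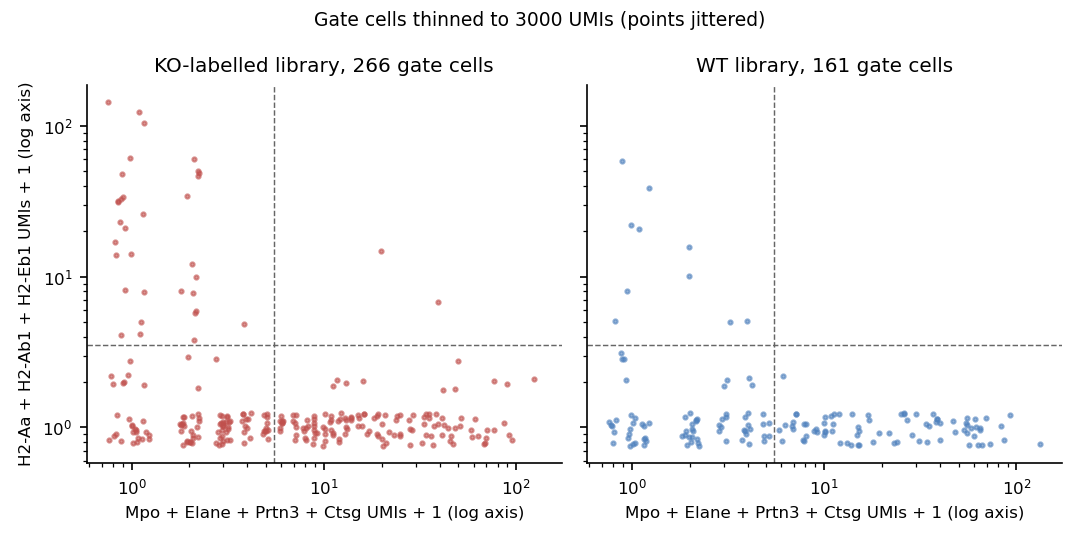
Each point is 1 gate cell thinned to 3000 UMIs, KO-labelled left and WT right, with UMIs of Mpo, Elane, Prtn3 and Ctsg plus 1 on the horizontal and of H2-Aa, H2-Ab1 and H2-Eb1 plus 1 on the vertical log axis; dashed lines mark the thresholds of 5 and 3 UMIs. Cells high on 1 axis are nearly all low on the other, with 2 KO-labelled cells past both lines.

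Between the libraries, 35 of the 2925 genes that reached 50 CPM in a gate (1.2%) were higher by 2-fold or more in KO-labelled gate cells and 13 (0.444%) lower by as much, with a median log2 ratio of -0.03 over all 2925. By any size, 1269 of them (43.4%) were higher and 1656 (56.6%) lower. At 1.5-fold 86 genes (2.94%) were higher and 70 (2.39%) lower. Of the 48 genes past 2-fold, 37 had the same direction in the other kept cells. The 4 genes S100a8, S100a9, Xist and Eif2s3y were past 2-fold the same way there and reached 50 CPM there. Below 50 CPM in the other cells, genes such as Chil3 (ratio 9.88), Cd209a (5.11), Lcn2 (5.10) and Cx3cr1 (0.40) were also past 2-fold the same way. Some genes, such as Cd74 (0.47), went the other way there. The other cells held 23 granule-rich KO-labelled and 5 granule-rich WT cells. Their part in the values of S100a8, S100a9, Chil3 and Lcn2 there was not tested. The comparison in other cells gave 26 of 3033 genes (0.857%) higher and 18 (0.593%) lower. All 48 genes had counting intervals that left out a ratio of 1. At the UMI totals of these gates the 50 CPM floor and the 2-fold rule fix this in advance, so it adds no support.

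Chil3, a chitinase-like secreted protein of myeloid cells, had the largest ratio among the 24 genes taken as highest and lowest at 100 CPM or more and in 20% of gate cells. It stood at 2785 CPM in KO-labelled and 245 CPM in WT gate cells, a ratio of 11.4 (10.4 to 12.5). After thinning it was seen in 47.4% of KO-labelled and 22.4% of WT gate cells, against 1.23% of KO-labelled and 0.139% of WT erythroid-marked cells. It was also higher outside the gate, at 39.1 CPM in KO-labelled and 3.96 CPM in WT cells. Those cells included the 23 KO-labelled and 5 WT granule-rich cells. There Chil3 stood at 12375 CPM (KO-labelled) and 7960 CPM (WT), and Lcn2 at 9504 and 10074 CPM. The part of these cells in the values outside the gate was not tested. Lcn2, the iron-binding lipocalin-2, stood at 144 CPM in the KO-labelled gate and 18.3 CPM in the WT gate (ratio 7.89), and at 27.6 CPM in KO-labelled and 5.41 CPM in WT cells outside it (ratio 5.10). S100a8, a calcium-binding protein of neutrophils and monocytes, stood at 243 and 28.1 CPM in the KO-labelled and WT gates (ratio 8.66), and was seen in 21.8% of KO-labelled and 5.59% of WT gate cells after thinning, against 1.60% of KO-labelled and 1.25% of WT erythroid-marked cells. Outside the gate S100a8 differed in the same way, at 221 CPM in KO-labelled and 35.6 CPM in WT cells (ratio 6.22). Gate cells were at 1.10 times the other cells in the KO-labelled and 0.79 times in the WT library. In the granule-rich cells among those other cells S100a8 stood at 60835 CPM (KO-labelled) and 56835 CPM (WT). Gate cells were not compared with the other cells without them, so these ratios do not show S100a8 as flat. With no limit on granule UMIs, which adds 8 KO-labelled and 2 WT cells, the S100a8 ratio was 2.40. Of the 6 late granule genes at 50 CPM or more, 5 passed 2-fold upward in the KO-labelled gate and 0 downward, with a median log2 ratio of 3.31. Of all 2925 genes 1.2% passed upward and 0.444% downward. Camp, Ngp and Ltf of that list set the gate and show nothing here. Some of these values rest on few cells. One KO-labelled cell held 83.8% of the S100a9 UMIs and 100% of the Retnlg UMIs came from 1 cell, and without the top cell in each library, an alternative chosen after seeing the data, the S100a9 ratio was 3.05, against 13.1 with it and 0.54 when the gate was applied after thinning.

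**Figure D3:**
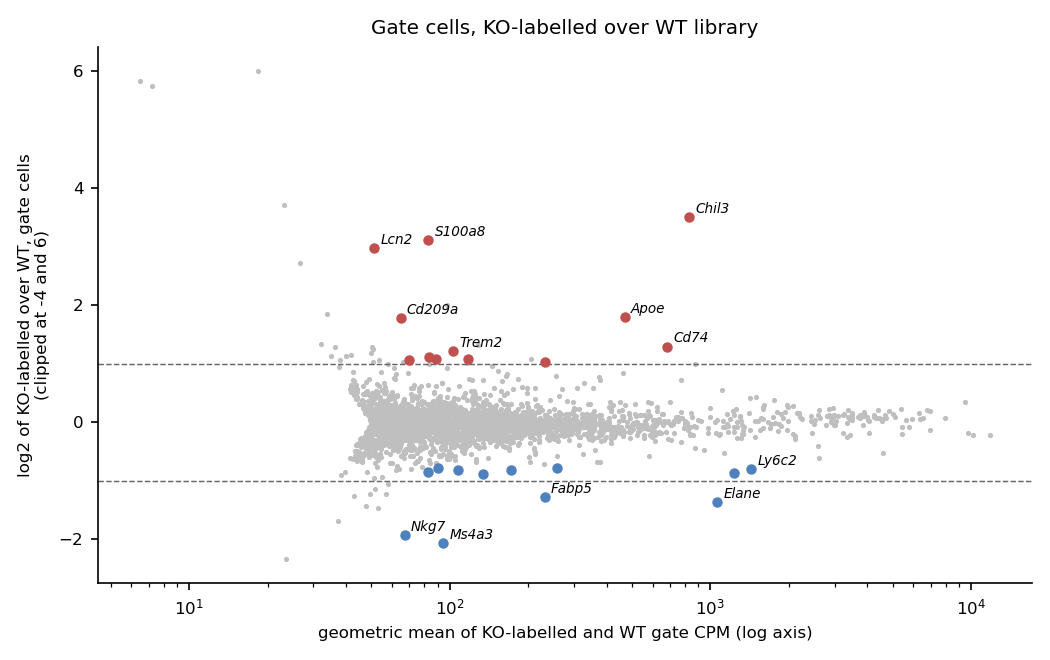
Each point is a gene at 50 CPM or more in a gate, with the geometric mean of the KO-labelled and WT gate CPM on the horizontal log axis and the log2 of KO-labelled over WT on the vertical axis, dashed at 2-fold. Chil3 (log2 3.51) and Ms4a3 (log2 -2.07) lie far from the band around 0 that holds most genes; red and blue points are the 12 highest and 12 lowest named genes.

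Some antigen presentation genes were higher in the KO-labelled gate. Of 6 class II list genes at 50 CPM or more, 3 passed 2-fold upward and 0 downward, where 1.2% and 0.444% of all genes did. Cd74, the invariant chain, stood at 1063 CPM in KO-labelled and 435 CPM in WT gate cells (ratio 2.45, 2.27 to 2.64), while outside the gate it was lower, at 85.3 CPM in KO-labelled and 180 CPM in WT cells. The ratio changed with how the gate was drawn. It was 4.85 without cells with 3 or more UMIs of 9 stem genes, 0.91 when 3 of the 7 rule genes sufficed and 6.60 when 5 were asked for. In the WT gate 1 cell held 29.5% of its UMIs. Of 13 dendritic cell genes 1, Cd209a, reached 50 CPM in a gate. It stood at 120 CPM in KO-labelled and 35.0 CPM in WT gate cells (ratio 3.42, 2.65 to 4.47), and was seen in 24.1% of KO-labelled and 9.94% of WT gate cells after thinning. Its ratio lay between 2.73 and 6.13 under the alternatives run. Siglech, which marks plasmacytoid dendritic cells, stood at 1.26 CPM in the KO-labelled gate and was at 0 in the WT gate.

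Apoe, a lipid carrier gene, stood at 876 CPM in KO-labelled and 251 CPM in WT gate cells (ratio 3.49, 3.17 to 3.84). Outside the gate it was higher than inside, at 2272 CPM in KO-labelled and 1215 CPM in WT cells, and was seen in 72.5% of KO-labelled and 82.3% of WT erythroid-marked cells after thinning. Gate cells with an Apoe UMI made up 59.8% in the KO-labelled and 19.9% in the WT library. The WT gate share lies far below that of erythroid-marked cells, which therefore give no measure of free RNA for this gene. Under the alternatives run the gate ratio lay between 2.02 and 11.1. Trem2, a lipid receptor of phagocytes, stood at 157 CPM in the KO-labelled gate and 67.6 CPM in the WT gate (ratio 2.32). Ifngr1, a subunit of the interferon-gamma receptor, stood at 331 CPM in KO-labelled and 162 CPM in WT gate cells (ratio 2.04). Of 8 interferon-stimulated genes at 50 CPM or more, 7 were higher and 1 lower in the KO-labelled gate (median log2 ratio 0.24). With 1.2% and 0.444% of all genes past 2-fold higher and lower, their count of 0 past 2-fold is no result about them.

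Genes of the granulocyte-monocyte progenitor stage were among the lowest. Of 10 such genes, 3 passed 2-fold downward in KO-labelled gate cells and 0 upward, where 0.444% and 1.2% of all genes did. Elane stood at 660 CPM in KO-labelled and 1701 CPM in WT gate cells (ratio 0.39, 0.37 to 0.41). Ms4a3, a membrane gene of that stage, stood at 46.0 CPM in the KO-labelled gate and 194 CPM in the WT gate (ratio 0.24). Nkg7 stood at 34.4 CPM in KO-labelled and 131 CPM in WT gate cells (ratio 0.26). Mpo stood at 1270.4 CPM in the KO-labelled gate and 1269.8 CPM in the WT gate, and Ctsg at 1996 CPM in the KO-labelled and 1545 CPM in the WT gate. Outside the gate Elane went the other way, at 411 CPM in KO-labelled and 323 CPM in WT cells. Ms4a3 and Nkg7 were lower in KO-labelled cells there too. Ms4a3 stood at 56.8 CPM in KO-labelled and 82.7 CPM in WT cells outside the gate, and Nkg7 at 144 and 277 CPM. Among male gate cells the Elane ratio was 0.17, and under the alternatives run it lay between 0.17 and 0.45.

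Genes of the classical monocyte state went both ways. Of 7 such genes at 50 CPM or more, 5 were higher and 2 lower in the KO-labelled gate, with 1, Chil3, past 2-fold upward and a median log2 ratio of 0.44. Ly6c2 stood at 1086 CPM in KO-labelled and 1890 CPM in WT gate cells (ratio 0.57, 0.55 to 0.60), and was seen in 80.1% of KO-labelled and 95.7% of WT gate cells after thinning. Its near-identical neighbour Ly6c1 could take or share reads with it, so the split is uncertain. F13a1, the coagulation factor XIII A chain, stood at 992 CPM in KO-labelled and 602 CPM in WT gate cells (ratio 1.65). Ctss, the lysosomal protease cathepsin S, stood at 489 CPM in the KO-labelled gate and 286 CPM in the WT gate (ratio 1.71). Of 3 non-classical monocyte genes at that level 1 was higher and 2 lower (median log2 ratio -0.40). The 1 past 2-fold was Cx3cr1, the fractalkine receptor gene, which is high in non-classical monocytes. It stood at 29.0 CPM in the KO-labelled gate and 78.5 CPM in the WT gate (ratio 0.37), and differed likewise outside the gate, at 0.999 CPM in KO-labelled and 2.49 CPM in WT cells. Of 27 monocyte identity genes at 50 CPM or more, 0 passed 2-fold upward and 2 downward, and the median log2 ratio was 0.10. Over all 2925 genes the shares past 2-fold were 1.2% upward and 0.444% downward, so a count of 0 in a list this short is no result about it. Of 14 S100, galectin and annexin genes, 13 were lower, where 56.6% of all genes were, and 0 past 2-fold; Lgals1 stood at 912 CPM in KO-labelled and 1676 CPM in WT gate cells (ratio 0.54). Fabp5, a fatty acid-binding protein, stood at 149 CPM in KO-labelled and 361 CPM in WT gate cells (ratio 0.41).

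Cell cycle and immediate early genes differed within 2-fold, in the gate and in the other cells. In the KO-labelled gate 17 of 18 S phase genes had a lower level (median log2 ratio -0.33), as did 18 of 20 genes of the G2 and M phases (median -0.20), where 56.6% of all genes were lower. Summed S phase genes stood at 2130 CPM in KO-labelled and 2550.5 CPM in WT gate cells, and at 2178 and 2559 CPM in other KO-labelled and WT cells. Summed G2 and M phase genes stood at 4283 CPM in KO-labelled and 4827 CPM in WT gate cells, and at 3662 and 3971 CPM in other KO-labelled and WT cells. Mki67 or Top2a was seen in 59.8% of KO-labelled gate cells (159 of 266, interval 53.6 to 65.7%) and 77.0% of WT gate cells (124 of 161, 69.7 to 83.3%) after thinning. In cells marked as granulocyte-monocyte progenitors the shares were 61.3% in the KO-labelled (58.3 to 64.2%) and 73.1% in the WT library (70.3 to 75.7%), and in cells marked as erythroid 67.7% in the KO-labelled and 72.9% in the WT library, so the direction was that of the gate in both. All 9 immediate early genes at 50 CPM or more were higher in the KO-labelled gate (median log2 ratio 0.46), where 43.4% of all genes were higher. The list summed to 1593 CPM in KO-labelled and 1115 CPM in WT gate cells, and to 1417 and 1096 CPM in other KO-labelled and WT cells. An example was Fos at 207 CPM in KO-labelled and 113 CPM in WT gate cells.

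**Figure D4:**
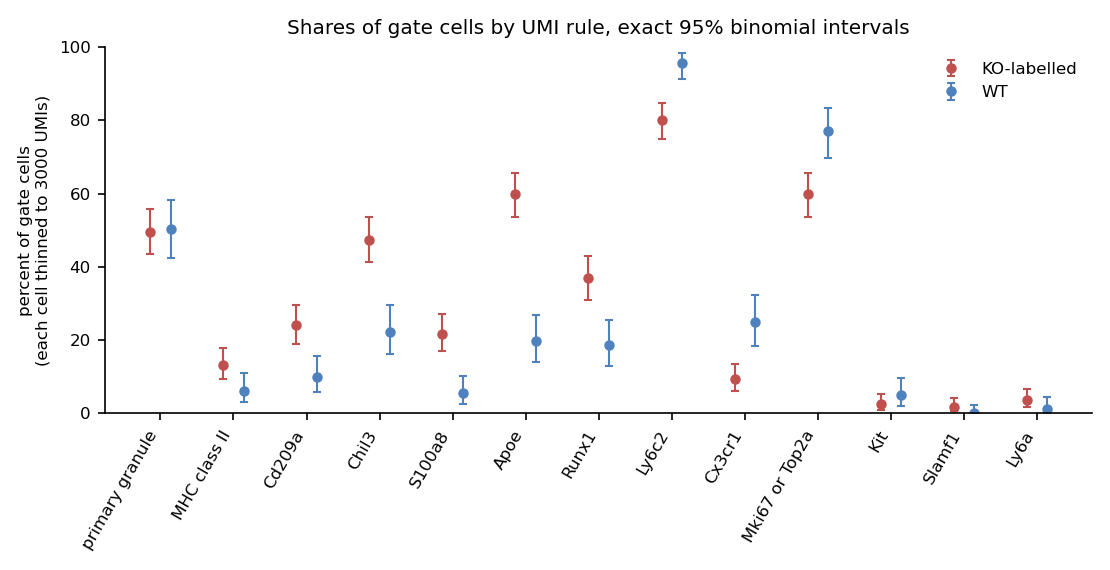
Percent of gate cells meeting each UMI rule after thinning to 3000 UMIs, for the KO-labelled (red, left of each pair, 266 cells) and WT (blue, 161 cells) libraries, with exact 95% binomial intervals that cover counting error only. The Chil3, Cd209a and S100a8 shares are higher in KO-labelled cells and the Ly6c2, Cx3cr1 and Mki67 or Top2a shares lower.

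Runx1 (chromosome 16, 92601466 to 92826149, minus strand), the targeted gene, was higher in the KO-labelled gate, at 170 CPM against 80.9 CPM in the WT gate (ratio 2.1, 1.76 to 2.52). The other kept cells differed in the same way, at 197 CPM in the KO-labelled and 104 CPM in the WT library (ratio 1.89). The gate ratio lay between 1.62 and 2.16 under the 14 alternatives run and passed 2-fold in 9 of them. The direction was opposite to a loss of Runx1 mRNA, in the gate and outside it, but whether the label holds cannot be told from these counts. The deleted exons are not given in the sources used here, and 3′ tags that fall outside them check nothing. Directions are those of the libraries as labelled. Cbfb, the partner subunit of RUNX proteins, stood at 36.0 CPM in the KO-labelled gate and 64.6 CPM in the WT gate (ratio 0.56). Runx3 stood at 47.3 and 26.6 CPM in the KO-labelled and WT gates, and Runx2 at 31.5 and 23.2 CPM.

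The ratios were also taken within subsets of the gate. Among the 23 KO-labelled and 106 WT male cells the Chil3 ratio was 12.7, Ly6c2 0.75, Lgals1 0.80 and Cd9 1.05. Among cells low in both marks (101 KO-labelled, 70 WT) Chil3 was at 17.1 and Fabp5 at 0.33. Cells with 3 or more UMIs of 9 stem genes made up 21.2% of the KO-labelled gate (57 cells, median 19519 UMIs) and 17.5% of the WT gate (29 cells, median 22481 UMIs), deeper than the rest (medians 8810 in KO-labelled and 9286 in WT cells). Doublets were not removed, and their part was not tested. The platelet gene Pf4 stood at 196 CPM in the KO-labelled gate and 48.9 CPM in the WT gate, with 62.0% of the KO-labelled UMIs in 1 cell, and the ratio without cells with 3 or more stem gene UMIs was 0.40.

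**Figure D5:**
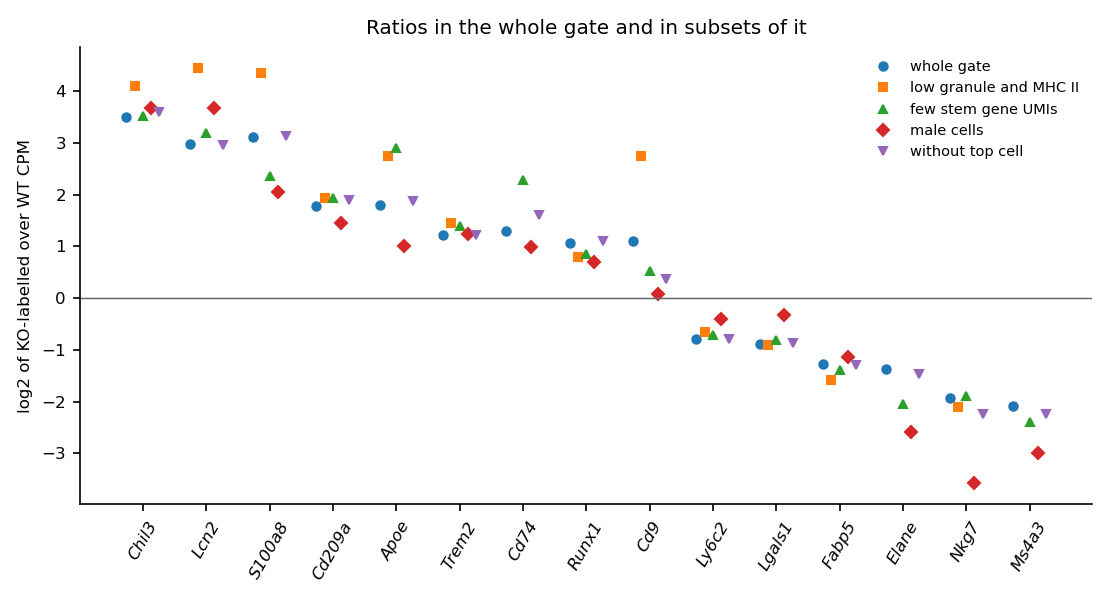
Log2 ratio of KO-labelled over WT gate CPM for 15 named genes in the whole gate and in 4 subsets of it, with no Ms4a3 point for cells low in granule and class II genes, where its counts were at the floor, and no Elane or Cd74 point there, since those cells were chosen by these or like genes. Chil3 lies above 3 in each subset (ratios 11.4 to 17.1), and Cd9 lies near 0 in male cells.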

How the data were processed

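Single-cell libraries (1 KO-labelled, 1 WT) were deposited as matrices of UMI counts per gene and barcode. Per the submitters' processing notes they were made with Cell Ranger 2.1.1 against mm10, while the file header names 3.1.0; per the labels' protocols the 3′ v2 kit was used. The deposited counts were not altered, and the genotype label gave each library its group. The members and gene lists were chosen with earlier results of these data known.

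A cell was kept with 500 genes or more and a mitochondrial share of UMIs of 10% or less. Doublets were not removed. The UMIs of a group of cells were added up within each library and given as CPM. Intervals are at 95%: exact conditional binomial for ratios, Clopper-Pearson for shares. A library at 0 counts was set to 3 counts. A gene was counted when it reached 50 CPM in a group and passed 2-fold. Before shares were taken, cells were thinned to 3000 UMIs without replacement, and 3 KO-labelled and 5 WT gate cells were shallower and left out. Cells outside the gate with at least 4 of 7 genes marked granulocyte-monocyte progenitors or erythroid cells. The 7 progenitor genes were Mpo, Elane, Prtn3, Ctsg, Ms4a3, Igsf6 and Nkg7, and cells marked by them were not counted as erythroid. Male cells had a UMI of a Y-linked gene and no Xist UMI; female cells had 2 or more Xist UMIs and no Y-linked UMI.

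Genes named in the text were those with the 12 largest and 12 smallest ratios that reached 100 CPM and were seen in 20% of gate cells, leaving out ribosomal, mitochondrial, sex-linked, haemoglobin, immunoglobulin and unnamed genes, the 15 highest and 10 lowest of gate over other cells, the rule and RUNX genes, and up to 6 and 4 members of each of 34 lists. Some are counted and not described. S100a9, Retnlg, C1qa, Siglech, Kit, Pf4 and the low or absent non-classical monocyte and macrophage genes were added as examples after their values were seen. Positions are from GENCODE on GRCm38, matched by gene ID.

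The ratio and count steps were tested on simulated sums for KO-labelled over WT gate cells: 50 of 50 genes changed 3-fold higher and 50 of 50 changed 3-fold lower passed 2-fold, and 0 of the 2623 unchanged genes and 0 of the 50 changed 1.5-fold in either direction did. This varied counting error only. Alternatives (gate, cell filter, depth, scaling with TMM factors from edgeR 4.0.16 in R 4.3.3, thresholds, subsets) are in the closing section. The software was pandas 2.3.3, scipy 1.17.1, numpy 2.4.6 and matplotlib 3.10.9 under Python 3.11.15.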

Additional observations from a re-analysis of the deposited data

Results flagged for a closer look

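In the WT library, 4 of the 497 barcodes that the cell filter left out met the monocyte gate (0.805%, exact interval 0.22 to 2.05%), and in the KO-labelled library 1 of 629 (0.159%, 0.004 to 0.883%). They were picked out because these barcodes enter no comparison. They are barcodes of few genes or many mitochondrial UMIs, and they were not added to the gate.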

How the results depend on the processing

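No paired analysis was possible because there was 1 library per genotype. Asking for 3 of the 7 genes gave gate shares of 3.21% (KO-labelled) and 2.51% (WT) and 20 genes higher, and asking for 5 gave 1.92% and 1.17% and 21 genes lower. The stricter cell filter gave 2.85% and 2.59% (ratio 1.10). Gating after thinning gave 1.25% and 0.75%, with 42 genes lower and 281 lower in gate than other cells. Leaving out cells with 3 or more stem gene UMIs gave 18.3% and 13.6% of a smaller denominator. A granule limit of 3 UMIs chose the same cells. Of the counts higher and lower between libraries (35 and 13) and between gate and other cells (319 and 171), a 1.5-fold rule gave 86, 70, 532 and 423, a 3-fold rule 12, 4, 198 and 86, a floor of 20 CPM 79, 28, 523 and 418, a floor of 100 CPM 18, 4, 204 and 73, and no floor 678, 433, 3395 and 1432. Male cells gave 80 and 105 between libraries, and cells low in both marks, an alternative chosen after seeing the data, 78 and 42; both use fewer cells. Of the 48 genes past 2-fold, 36 kept their direction under every setting run for them and 18 stayed past 2-fold. The ratio turned round with 3 of the 7 genes for Cd74 (0.912), H2-Aa (0.838), H2-Eb1 (0.959). The ratio turned round when gating after thinning for S100a9 (0.536), Pf4 (0.395), Gp9 (0.536). The ratio turned round without cells with 3 or more stem gene UMIs for Pf4 (0.396), Clec1b (0.911), Nrgn (0.618). The ratio turned round in male cells for Dmkn (0.838), Pf4 (0.293), Itga2b (0.602), Prss34 (4.67), Ddx3y (1.36), Kdm5d (1.7), Uty (1.38), Nrgn (0.081), Hist1h3d (0.99), Serpina3g (0.13), Gng11 (0.201), Itga6 (0.415). Male cells were chosen by UMIs of Y-linked genes, so nothing is read from the turn of Ddx3y, Kdm5d and Uty. In cells low in both marks it turned round for Cd74 (0.881) and H2-Eb1 (0.405), which the choice of cells with few class II UMIs fixes, so nothing is read from it. Leaving out the cell with the most UMIs of each gene was also chosen after seeing the data. The causes were not tested. Depth limits shares of single genes, since thinned cells hold 3000 UMIs.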
